A study of Mus musculus with 8 samples.

Results

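The 34 genes described here encode the steps that take glucose to lactate and part of the response of a cell to low oxygen. They were chosen as a list of symbols, and all 34 were found among the 33696 genes of the 6 mRNA libraries. Of these, 21 encode glucose transporters, glycolytic enzymes and a lactate exporter, and 13 are hypoxia-induced genes together with Hif1a. The libraries hold single cells of tumour-bearing mouse liver, counted as unique molecular identifiers (UMIs) at the 3′ end of transcripts, with 3 libraries per group. Every mouse was a male C57BL/6 carrying floxed Nr4a1 alleles (Nr4a1fl/fl). Nr4a1 encodes the nuclear receptor Nur77. The group labelled knockout also carried Ncr1iCre, a Cre recombinase driven by a gene of natural killer (NK) cells and related innate lymphocytes, and the controls were Ncr1WT and lacked Cre. Liver tumours were raised in both groups by injecting plasmids into the tail vein at 8 to 10 weeks of age: a CRISPR-Cas9 vector with a guide to Trp53, a transposon carrying c-Myc, and the CMV-SB13 transposase. Livers were taken 4 to 5 weeks later, so no tumour-free liver and no liver without floxed Nr4a1 is in these comparisons. Replicate 3 pooled 3 control mice and 2 mice of the other group, and the animals behind replicates 1 and 2 are not given. P-values therefore hold for these libraries only. Between the groups they measure the spread between libraries, and between cell classes, fitted with the library as a block, the spread within libraries.

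Glycolysis splits glucose into pyruvate in the cytosol, and lactate dehydrogenase turns pyruvate into lactate when it is not burned in mitochondria. When oxygen is low, the subunit encoded by Hif1a escapes hydroxylation by the Egln enzymes, pairs with its partner Arnt and binds promoters that carry a short core sequence, raising glucose transporters, most glycolytic enzymes and genes such as Bnip3 and Ndrg1. Myc, the oncogene of this tumour model, binds a related sequence, the E-box, and is known to raise many of the same enzymes. Normal hepatocytes run the pathway mostly in reverse, to release glucose, and use liver forms of several enzymes.

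The promoters of 4 members are shown because all 4 carry the core letters, Ldha and Bnip3 carry the E-box letters too, and their RNA differed between the cell classes described below. The core letters are ACGTG or GCGTG, searched on both strands, and the E-box letters are CACGTG, each of which also holds a core on either strand. Capitals mark every stretch of either motif. The windows run from 250 bases before to 50 bases after the RefSeq start of the gene, 5′ to 3′ on the strand of the gene, in build GRCm38.p6.
Ldha, chr7:46845554-46845853, + strand: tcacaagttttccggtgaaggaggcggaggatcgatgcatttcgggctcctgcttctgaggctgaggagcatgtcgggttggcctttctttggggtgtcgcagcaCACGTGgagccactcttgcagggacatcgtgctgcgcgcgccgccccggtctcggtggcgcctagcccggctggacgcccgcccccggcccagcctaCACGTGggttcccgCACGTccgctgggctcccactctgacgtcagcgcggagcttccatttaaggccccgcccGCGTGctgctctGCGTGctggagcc
Pgk1, chrX:106186850-106187149, + strand: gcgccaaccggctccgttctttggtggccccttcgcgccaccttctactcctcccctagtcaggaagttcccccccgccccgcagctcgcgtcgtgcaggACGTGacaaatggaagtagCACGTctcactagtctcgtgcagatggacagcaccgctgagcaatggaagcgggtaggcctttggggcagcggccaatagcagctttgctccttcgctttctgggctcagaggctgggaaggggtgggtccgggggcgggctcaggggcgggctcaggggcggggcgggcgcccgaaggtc
Ankrd37, chr8:45999801-46000100, - strand: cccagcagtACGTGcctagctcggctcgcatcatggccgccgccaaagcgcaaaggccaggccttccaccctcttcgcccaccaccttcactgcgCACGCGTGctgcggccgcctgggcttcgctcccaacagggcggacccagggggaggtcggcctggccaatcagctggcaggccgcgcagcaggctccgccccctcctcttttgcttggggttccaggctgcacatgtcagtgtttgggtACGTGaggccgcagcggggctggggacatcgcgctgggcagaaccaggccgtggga
Bnip3, chr7:138909457-138909756, - strand: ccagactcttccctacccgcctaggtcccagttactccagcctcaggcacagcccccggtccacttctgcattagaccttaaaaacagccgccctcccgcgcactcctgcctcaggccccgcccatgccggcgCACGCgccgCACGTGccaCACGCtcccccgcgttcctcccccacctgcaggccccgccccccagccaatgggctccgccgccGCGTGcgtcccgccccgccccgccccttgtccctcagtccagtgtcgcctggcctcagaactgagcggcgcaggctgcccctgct
The Ldha window holds 5 marked stretches, 2 of them E-boxes, and the Bnip3 window holds 4, with 1 E-box. A promoter was matched for 31 of the 34 members. Core letters were in 37 of their 45 windows (82.2%), against 43.8% of all 32851 windows of that length, and at least 1 window of 28 of the 31 members had them, against 46.7% of 27025 genes. E-box letters were in 5 of the 45 windows (11.1%), against 7.15% of all windows. These are matches of letters, not sites at which binding was measured.

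Cells passing the quality filters numbered 21482, with 549 in control 2 and 134 in knockout 2 against 2697 to 10128 in the other 4 libraries. These 2 small libraries also had the highest median mitochondrial shares among barcodes of at least 500 UMIs, 27.86% and 75.13%, against 6.68% to 10.0% in the others. UMIs kept per library ran from 887170 to 93302952, and pairs of libraries shared 0 to 15 cell barcodes. Cells were assigned to classes by marker genes that include no member, so that a class name stands for cells with those markers (NK-like, neutrophil-like and so on), and levels are counts per 1000000 UMIs of the class in a library (CPM). The leading genes of the basophil or mast cell class came from both cell types (Mcpt4, Cma1, Prss34, Mcpt8), and the cholangiocyte class, with 47 cells, had only 1 of its markers among its 10 leading genes. Before cells with markers of several classes were left out, the cholangiocyte class also held Alb, Trf, Ambp and Tat. These hepatocyte markers stood there above 0.33 of their level in hepatocyte-like cells. Nr4a1 stood at 81.52, 34.96 and 52.04 CPM in NK-like cells of the controls and at 150.2, 0 and 65.9 CPM in the libraries labelled knockout 1, 2 and 3. The 0 in knockout 2 allows up to 26.7 CPM. Of the libraries labelled knockout, 2 thus lay within or above the controls. The deleted exons are not given in the sources used here, so 3′ counts need not show the deletion.

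Within hepatocyte-like cells, most members tested differed between tumour-type and non-tumour cells, in both directions. Tumour-type cells were called from 14 markers such as Afp, H19, Gpc3 and Bex1, non-tumour cells from 14 markers of mature hepatocytes such as Cyp2e1 and Mup3. Of 33 members tested, 18 were higher and 5 were lower in tumour-type cells in control 1, control 3 and knockout 3, the libraries with at least 10 cells of both kinds. Among all 13592 genes tested in the same fit, 25.9% were higher and 21.9% were lower. The median log2 fold change of the members was 0.76, against 0.27 over all genes. The cells differed in depth, with medians of 64170, 94291.5 and 74996 UMIs per tumour-type cell and 2415, 2042 and 1348 UMIs per non-tumour cell in these 3 libraries, and the part of depth in the counts was not tested.

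Pkm, the pyruvate kinase of most growing cells, was at 675.8, 750.9 and 725.8 CPM in tumour-type cells and at 22.1, 29.3 and 25.2 CPM in non-tumour cells of control 1, control 3 and knockout 3. The lowest tumour-type value was far above the highest non-tumour value. The log2 fold change was 4.53 (SE 0.217, edgeR adjusted p = 1.19e-24). RNA in barcodes with at most 100 UMIs, which stands for free RNA in the droplets, held Pkm at 455.6 CPM in control 3 and 489.9 CPM in knockout 3, well above the non-tumour cells of the same libraries.

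Ldha, which makes lactate from pyruvate, was at 1420, 1415 and 1462 CPM in tumour-type cells against 606.1, 428.7 and 485.1 CPM in non-tumour cells (log2 fold change 1.27, SE 0.151, edgeR adjusted p = 4.85e-10). Eno1, the general enolase, was at 816.0, 1158 and 924.7 CPM against 199.1, 351.3 and 269.7 CPM (log2 fold change 1.58, SE 0.163, edgeR adjusted p = 8.2e-12). Neither gene overlapped between the kinds of cell. Aldoa, the aldolase of most tissues, was at 432.9, 690.7 and 630.1 CPM against 92.9, 156.8 and 121.8 CPM (log2 fold change 1.99, SE 0.183, edgeR adjusted p = 1.91e-13). Mif, a cytokine induced by hypoxia, was at 2160, 2958 and 3129 CPM against 977.8, 785.2 and 834.3 CPM (log2 fold change 1.41, SE 0.144, edgeR adjusted p = 5.83e-12). Both were higher in every tumour-type sum than in any non-tumour sum.

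At the entry of the pathway, Pfkl, the liver subunit of phosphofructokinase, had a log2 fold change of 1.87 (SE 0.291) and Pfkp, the platelet subunit, one of 1.74 (SE 0.305). Hk2, the inducible hexokinase, was at 43.5, 39.5 and 38.5 CPM in tumour-type cells and at 0, 8.46 and 5.03 CPM in non-tumour cells (log2 fold change 2.44, SE 0.4, edgeR adjusted p = 1.13e-06). Slc16a3, the lactate exporter MCT4, was at 25.5, 18.0 and 22.6 CPM against 13.3, 0 and 1.01 CPM. Its log2 fold change of 3.43 (SE 0.638, edgeR adjusted p = 1.18e-05) became 5.45 without control 1, whose 51 non-tumour cells held the 13.3 CPM. Ndrg1, a stress-response gene, behaved alike in that library: it was at 53.1 CPM in non-tumour cells of control 1 and at 5.86 and 3.02 CPM in those of control 3 and knockout 3, against 60.1 to 78.8 CPM in tumour-type cells (log2 fold change 2.43, SE 0.39, edgeR adjusted p = 7.18e-07).

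Not every member was higher in tumour-type cells. Bnip3l and Bnip3, which mark mitochondria for removal, were lower in the fit, with log2 fold changes of -1.38 (SE 0.217, edgeR adjusted p = 5.07e-07) and -0.78 (SE 0.228, edgeR adjusted p = 0.00375). Bnip3 was at 393.8 CPM in non-tumour cells of control 1 and at 163.3 and 157.0 CPM in those of control 3 and knockout 3, so that tumour-type cells at 110.7, 165.3 and 166.7 CPM overlapped the other kind. By CPM, Bnip3 was thus lower in tumour-type cells of control 1 only, and slightly higher in those of control 3 and knockout 3. Slc2a3, a high-affinity glucose transporter, was at 0.61 to 0.78 CPM in tumour-type cells and at 0, 7.16 and 11.1 CPM in non-tumour cells (log2 fold change -3.57, SE 0.801, edgeR adjusted p = 0.000201), while free RNA held it at 21.3 and 17.1 CPM in control 3 and knockout 3. Gapdh, the most used reference transcript of the pathway, was at 2082, 2876 and 2821 CPM against 1898, 2279 and 2010 CPM and did not pass the test (log2 fold change 0.07, SE 0.128, edgeR adjusted p = 0.682). Tpi1 fell just outside the threshold (log2 fold change 0.36, SE 0.156, edgeR adjusted p = 0.0518). The other 8 members higher in tumour-type cells were Pgam1, Ankrd37, P4ha2, Gpi1, Pgk1, Pdk1, Hif1a and Ero1a, with log2 fold changes from 0.57 for Pgk1 to 2.90 for P4ha2. The other 2 lower members were Aldoc at -1.38 and Hk1 at -2.38. Free RNA held Aldoc at 4.384 and 4.437 CPM and Hk1 at 14.5 and 8.875 CPM in control 3 and knockout 3. The part of free RNA in the non-tumour values was not tested. Hilpda, Egln1, Egln3, Pfkfb3, Pfkfb4, P4ha1, Slc2a1 and Pfkm did not pass, and Eno2 had too few UMIs to be tested. Most changes put into simulated counts of this comparison were missed, so a member that did not pass may still differ. The count of higher members ran from 11 without knockout 3 to 21 without control 1, and without scaling factors the share of higher genes among those called moved from 54.2% to 64.4%, with 21 members higher and 4 lower.

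**Figure D1:**
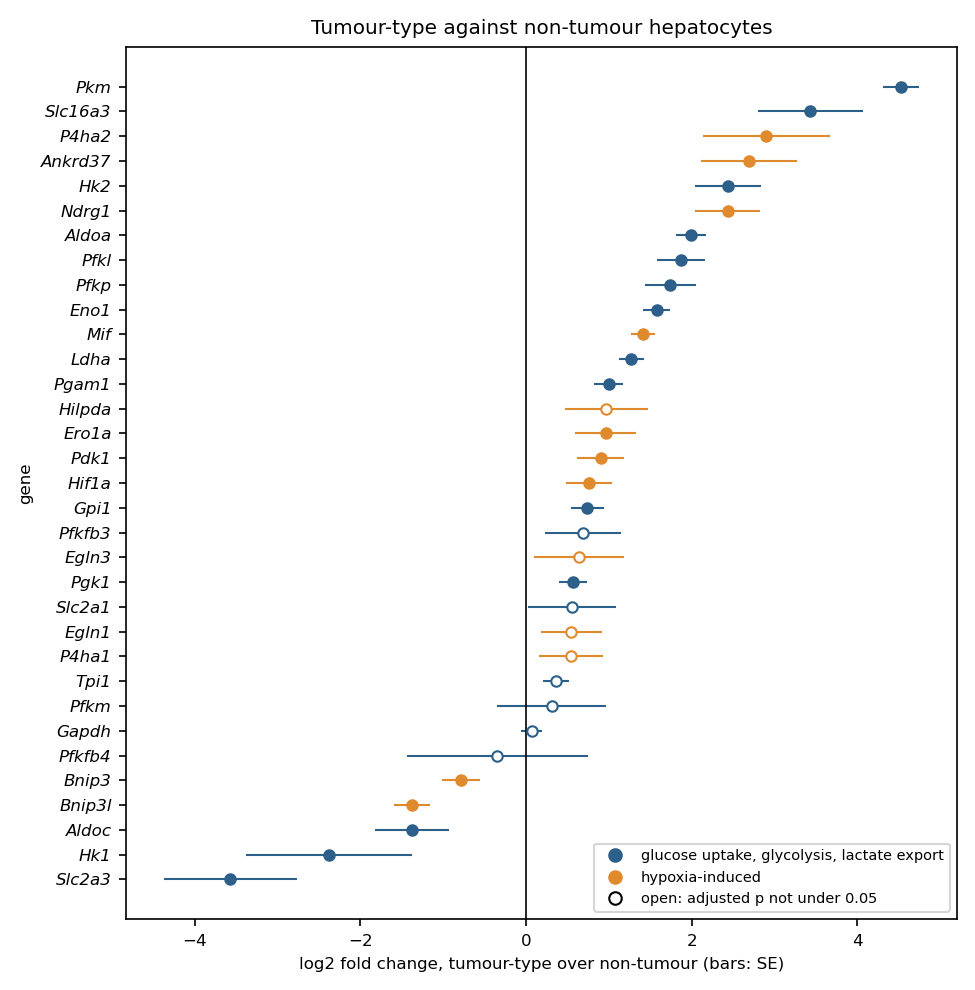
Log2 fold change with its standard error of each tested member in tumour-type against non-tumour hepatocyte-like cells of control 1, control 3 and knockout 3. Filled points have an edgeR adjusted p under 0.05, with Pkm at 4.53 at 1 end and Slc2a3 at -3.57 at the other.

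Other genes of the pathway, taken from lists of 34 further glycolysis and pyruvate genes, 30 further hypoxia genes and 13 components of the HIF pathway, moved in both directions in the same comparison. Of 30 further glycolysis genes tested, 8 were higher and 10 lower, against 25.9% and 21.9% of all genes. Their median log2 fold change was -0.41, on the other side of 0 from that of the members. Among the lower genes, Fbp1, which works against glycolysis in glucose production, was at 35.1 to 69.2 CPM in tumour-type cells of the 6 libraries and at 810.1, 999.9 and 1137 CPM in non-tumour cells (log2 fold change -4.46, SE 0.196, edgeR adjusted p = 3.26e-26). Mpc1, a subunit of the mitochondrial pyruvate carrier, had a log2 fold change of -2.44 (SE 0.172). Of 26 further hypoxia genes, 9 were higher and 6 lower, with Plin2, a lipid droplet coat protein, at -3.19 (SE 0.197). Of 12 HIF pathway genes, 4 were higher and 2 lower. The same 25.9% and 21.9% of all genes stand beside the hypoxia and HIF counts.

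Across all classes, the summed level of the 21 glycolysis members was highest in tumour-type hepatocyte-like cells, at 8527 ± 867 CPM (SD, n = 6 libraries). Macrophages followed at 6272 ± 1721 CPM (n = 4), neutrophils at 5012 ± 1233 CPM (n = 6) and the basophil or mast cell class at 4978 ± 894.7 CPM (n = 5), which overlapped each other. The highest macrophage sum, 7843 CPM, was above the lowest tumour-type sum, 7511 CPM. NK-like cells stood at 3570 ± 624.9 CPM (n = 6) and monocytes at 3257 ± 652.2 CPM (n = 6), also overlapping. The lowest sums were in endothelial cells, at 1670 ± 517.7 CPM (n = 6), and in B cells, at 1243 ± 169.2 CPM (n = 5). The sum of the 13 hypoxia members was likewise highest in tumour-type cells, at 3120 ± 404.9 CPM, and lowest in B cells, at 499.8 ± 131.3 CPM. In neutrophils it was 1112 ± 871.9 CPM, because knockout 2, with 10 neutrophils, stood at 2878 CPM and the other 5 libraries between 594.8 and 907.9 CPM.

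**Figure D2:**
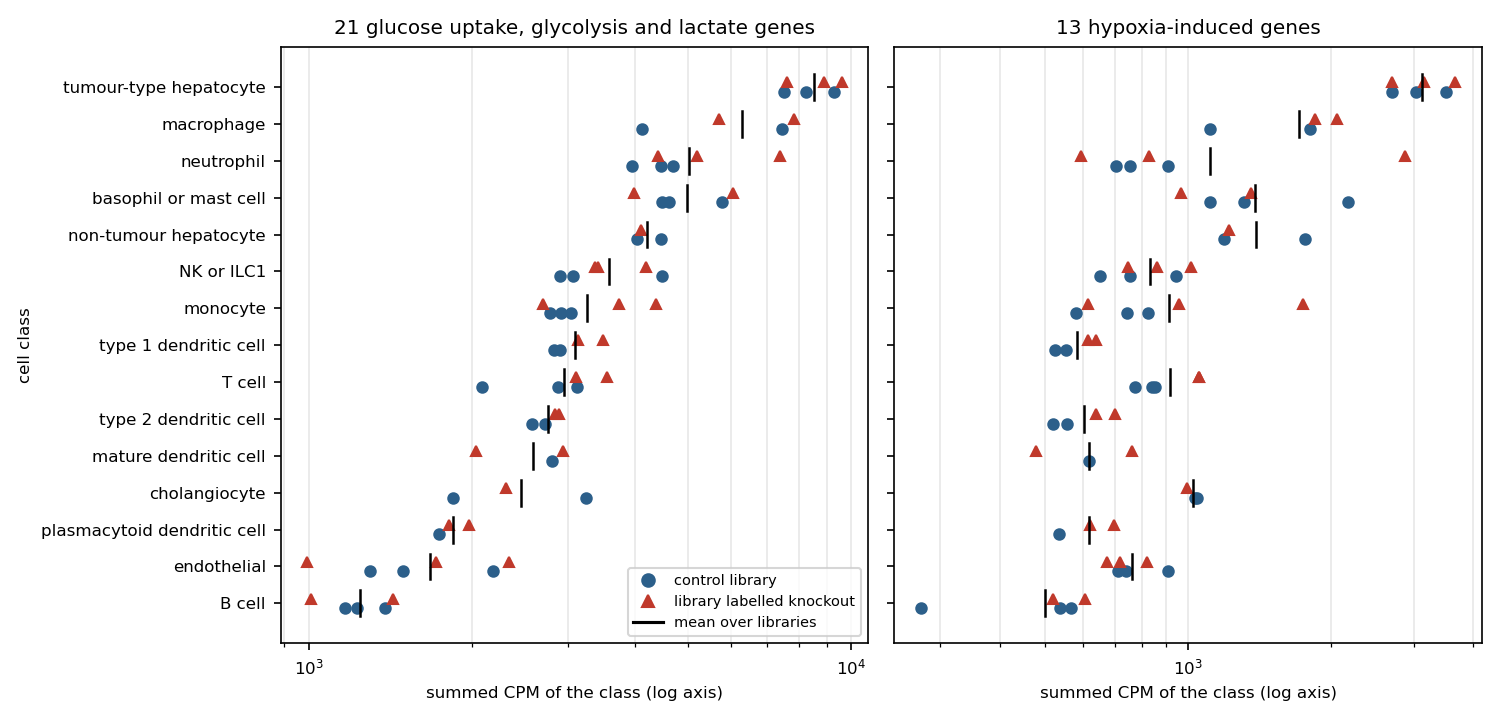
Summed CPM of the 21 glycolysis members and of the 13 hypoxia members in each class on a log axis, with dots for control libraries, triangles for libraries labelled knockout and a line at the mean. Tumour-type hepatocyte-like cells are highest in both, and neutrophils of knockout 2 stand apart in the hypoxia sum.

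By class, tumour-type hepatocyte-like cells had the highest mean level of 11 of the 34 members, the basophil or mast cell class of 6 and neutrophils of 5. Macrophages and cholangiocytes had the highest of 3 each, endothelial cells and mature dendritic cells of 2 each, and monocytes and non-tumour hepatocyte-like cells of 1 each. Such ranks were not counted over all genes, of which 43.7% were higher in hepatocyte-like cells in the fit over all classes. For 7 members the libraries of the highest class did not overlap those of the class ranked next: Pfkfb3, Tpi1, Pgk1, Pgam1, Eno1, Ldha and Mif. Except for Pfkfb3, highest in mature dendritic cells, these 7 were highest in tumour-type cells. For the other 27 members the 2 highest classes overlapped. How often the 2 highest classes overlap was not counted over all genes.

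**Figure D3:**
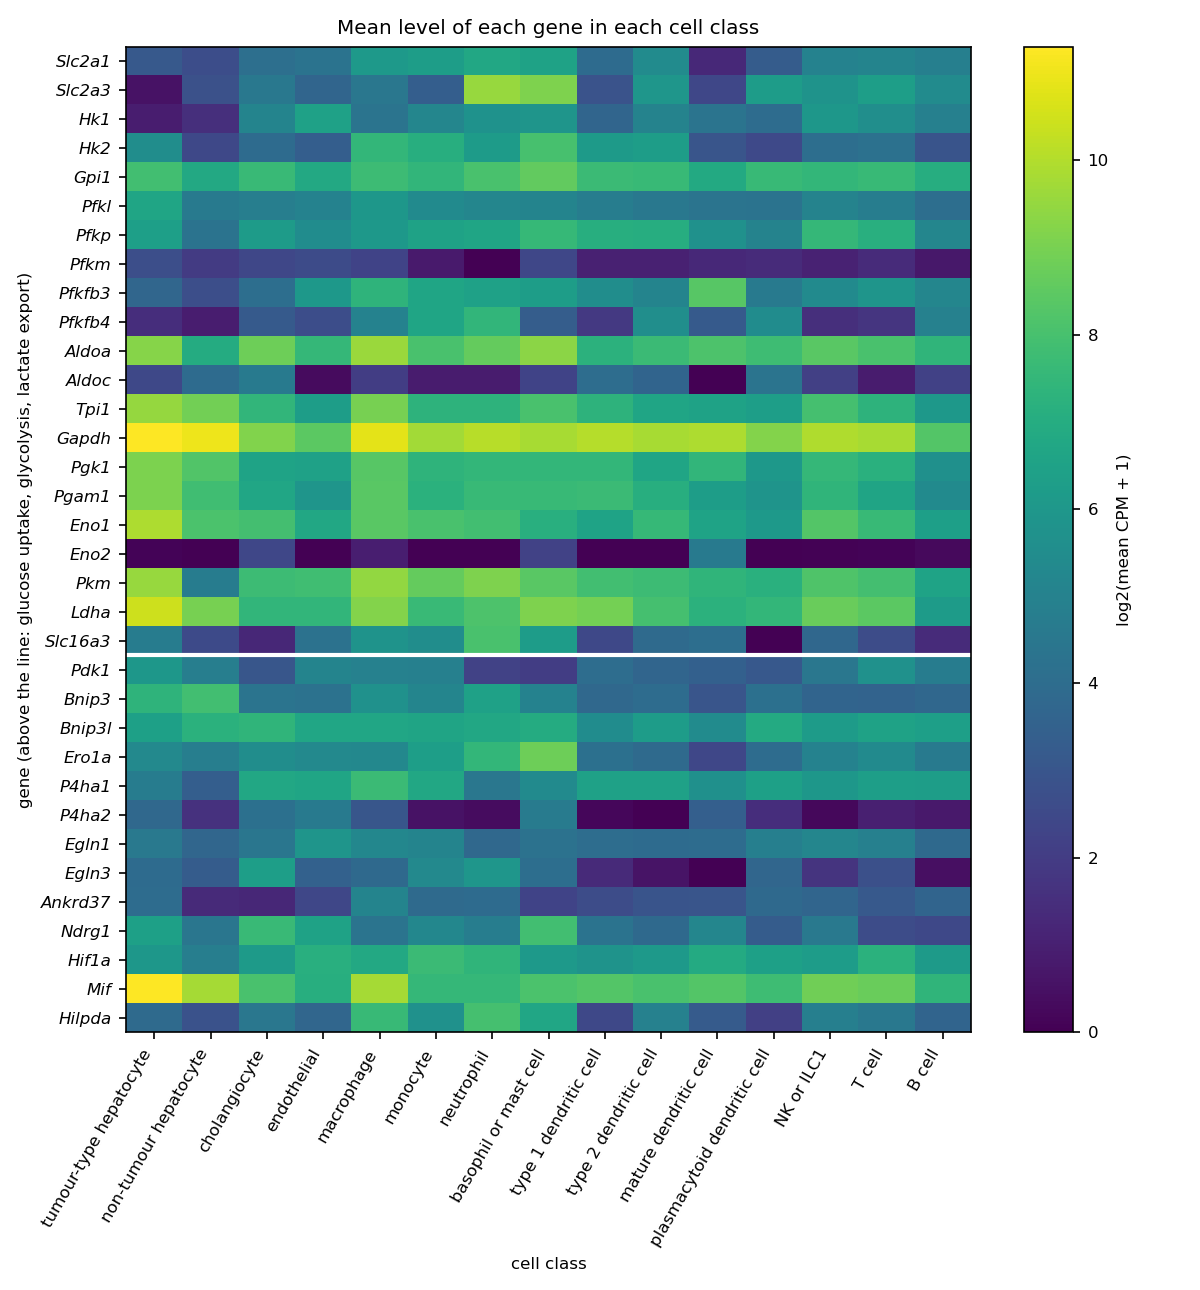
Mean level of each member in each of 15 classes, as log2 of CPM plus 1, with glycolysis members and hypoxia members set apart. Lower glycolytic enzymes and Mif are bright in tumour-type cells, whereas Slc2a3, Slc16a3 and Pfkfb4 are bright in neutrophils and faint or absent in hepatocyte-like cells.

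Glucose entry was split between cell types. In neutrophils, Slc2a3 ran from 194.5 CPM through a median of 696.6 CPM to 1445 CPM over the 6 libraries. In the basophil or mast cell class it was at 1084, 202.3 and 426.6 CPM in the controls and at 190.9 and 880.3 CPM in knockout 1 and 3. These classes overlapped, and T cells followed at 79.8 ± 14.4 CPM (SD, n = 5), while tumour-type cells did not exceed 0.78 CPM. Against the mean of the other 13 classes fitted, the log2 fold change of Slc2a3 was 5.31 in neutrophils (SE 0.2, edgeR adjusted p = 1.51e-33) and 4.36 in the basophil or mast cell class (SE 0.217, edgeR adjusted p = 7.57e-27). Slc2a1, the general glucose transporter, was also highest in neutrophils, at 107.5 ± 47.6 CPM (SD, n = 6), but overlapped the basophil or mast cell class at 90.4 ± 58.9 CPM and monocytes at 78.3 ± 63.0 CPM. In mature dendritic cells it did not exceed 4.29 CPM.

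The hexokinases, which trap glucose as its phosphate, divided the classes by isoform. Hk2 was at 202.6 to 326.0 CPM in the 5 libraries of the basophil or mast cell class, at 300.9, 138.6, 199.5 and 76.3 CPM in macrophages of control 1, control 3, knockout 1 and knockout 3, and at 101.9 to 195.3 CPM in monocytes. These 3 classes overlapped. The log2 fold change of Hk2 against the mean of the others was 3.25 in the basophil or mast cell class (SE 0.186), 2.39 in macrophages (SE 0.199) and 2.16 in monocytes (SE 0.166), each with an edgeR adjusted p of at most 2.78e-16. By CPM, Hk1, the constitutive form, was highest in endothelial cells, at 63.6 to 115.9 CPM with a median of 86.6 CPM, and overlapped NK-like cells at 32.4 to 124.7 CPM. In the scaled fit its log2 fold change was 1.42 in endothelial cells (SE 0.195, edgeR adjusted p = 4.13e-09). That in neutrophils was larger, at 1.67 (SE 0.276, edgeR adjusted p = 6.93e-07). In hepatocyte-like cells Hk1 did not exceed 2.04 CPM (log2 fold change -5.03, SE 0.264, edgeR adjusted p = 1.17e-26).

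At the phosphofructokinase step, Pfkp was at 155.7 to 231.6 CPM in NK-like cells with a median of 175.8 CPM (log2 fold change 1.16, SE 0.138, edgeR adjusted p = 1.31e-10), overlapping the basophil or mast cell class at 186.8 ± 43.1 CPM (SD, n = 5). Pfkl was highest in tumour-type cells, at 73.1 to 123.6 CPM. The bifunctional enzymes Pfkfb3 and Pfkfb4, which make the activator of phosphofructokinase, peaked in different cells. Pfkfb3 was at 338.7, 301.8 and 357.0 CPM in mature dendritic cells of control 3, knockout 1 and knockout 3 (log2 fold change 2.98, SE 0.275, edgeR adjusted p = 3.39e-14), although this class held only 27, 15 and 16 cells there. Pfkfb4 was at 87.5 to 240.9 CPM in neutrophils with a median of 188.3 CPM (log2 fold change 4.36, SE 0.241, edgeR adjusted p = 8.6e-25) and at 61.1 to 194.0 CPM in monocytes with a median of 75.3 CPM (log2 fold change 2.76, SE 0.207, edgeR adjusted p = 1.62e-18). In NK-like cells it did not exceed 4.03 CPM. Pfkm, the muscle subunit, was at most 5.61 ± 1.39 CPM, in tumour-type cells, and was not tested.

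The lower part of the pathway, from aldolase to lactate dehydrogenase, was highest in hepatocyte-like cells, nearly all of whose UMIs came from tumour-type cells. Eno1 was at 811.5 to 1122 CPM there (log2 fold change 2.86, SE 0.115, edgeR adjusted p = 1.13e-32) and Ldha at 1222 to 1449 CPM (log2 fold change 2.71, SE 0.133, edgeR adjusted p = 4.39e-28). The lowest hepatocyte-like library was above every other class for both. Pgam1, phosphoglycerate mutase, had a log2 fold change of 2.40 (SE 0.121), Tpi1, triosephosphate isomerase, one of 2.59 (SE 0.151), and Pgk1, phosphoglycerate kinase, one of 2.29 (SE 0.13). Aldoa was the exception in that part of the pathway: its highest mean was in macrophages, at 406.6, 1040, 624.3 and 1001 CPM in control 1, control 3, knockout 1 and knockout 3, which overlapped the basophil or mast cell class, with a highest value of 885.8 CPM, and tumour-type cells at 432.9 to 798.6 CPM. Pkm in macrophages, at 601.8, 694.6, 631.7 and 894.9 CPM, also overlapped tumour-type cells, at 623.5 to 1044 CPM. Eno2, the neuronal enolase, was not tested and reached 8.58, 48.7 and 12.3 CPM in mature dendritic cells. Aldoc, the brain aldolase, stood between 14.3 and 16.3 CPM in all 4 libraries with type 1 dendritic cells.

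Slc16a3, which carries lactate out of the cell, was a neutrophil gene in this tissue. It was at 168.0, 277.9 and 433.1 CPM in the controls and at 74.4, 311.2 and 319.9 CPM in knockout 1, 2 and 3. The basophil or mast cell class followed at 59.1 to 110.7 CPM. Neutrophils of knockout 1 overlapped that class, monocytes, macrophages and endothelial cells, and those of the other 5 libraries overlapped no class. Plasmacytoid dendritic cells had 0 UMIs in 3 libraries, which allows up to 3.92 CPM. Against monocytes, at 0 to 83.9 CPM, the log2 fold change in neutrophils was 2.90 (SE 0.305, edgeR adjusted p = 8.15e-12).

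Among the hypoxia members, Mif at 2150 to 3129 CPM in tumour-type cells exceeded every other class, with macrophages next at 626.2 to 1128 CPM. Bnip3 was at 112.7 to 236.7 CPM in hepatocyte-like cells (log2 fold change 3.24, SE 0.153, edgeR adjusted p = 4.41e-29). It was also higher in macrophages (log2 fold change 1.52, SE 0.268, edgeR adjusted p = 4.37e-06) and in neutrophils (log2 fold change 1.55, SE 0.318, edgeR adjusted p = 4.6e-05). Pdk1, which blocks the entry of pyruvate into mitochondria, was highest in tumour-type cells, at 50.5 to 75.1 CPM, and overlapped T cells at 34.5 to 74.6 CPM. Ero1a, an oxidase of the endoplasmic reticulum, was at 322.0, 517.1 and 908.6 CPM in the controls of the basophil or mast cell class and at 204.5 and 279.9 CPM in knockout 1 and 3 (log2 fold change against the mean of the others 3.98, SE 0.218, edgeR adjusted p = 1.02e-24). Ndrg1 was at 172.7 to 364.7 CPM in the same class (log2 fold change 3.25, SE 0.235, edgeR adjusted p = 6.04e-19).

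Hilpda, which coats lipid droplets and slows their breakdown, was at 97.6, 137.0, 269.7 and 274.8 CPM in macrophages of control 1, control 3, knockout 1 and knockout 3 (log2 fold change 3.25, SE 0.286, edgeR adjusted p = 2.47e-15). In neutrophils it was at 21.9 to 240.9 CPM in 5 libraries and at 1050 CPM in knockout 2. The log2 fold change of neutrophils against the mean of the others was 2.20 (SE 0.392, edgeR adjusted p = 3.33e-06) and 1.42 without the libraries numbered 2. P4ha1, a subunit of collagen prolyl hydroxylase, was highest in macrophages, at 113.9 to 262.3 CPM (log2 fold change 1.65, SE 0.194, edgeR adjusted p = 1.06e-10), and its relative P4ha2 reached 13.2 to 57.9 CPM in endothelial cells and 13.6 to 42.3 CPM in the basophil or mast cell class. By CPM, Hif1a itself was highest in monocytes, at 123.6 to 486.7 CPM with a median of 152.7 CPM (log2 fold change 0.80, SE 0.186, edgeR adjusted p = 0.000318). It overlapped neutrophils at 55.6 to 251.0 CPM, whose log2 fold change in the scaled fit was larger (1.41, SE 0.199, edgeR adjusted p = 1.53e-08).

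The oxygen sensors Egln1 and Egln3 and 2 further members had no class to themselves. Egln1 was highest in endothelial cells, at 18.4 to 115.9 CPM with a median of 53.4 CPM, and overlapped macrophages at 36.7 ± 17.3 CPM (SD, n = 4). Egln3 was highest in cholangiocytes, at 184.4 CPM in control 1 but 17.1 and 39.3 CPM in control 3 and knockout 3. Ankrd37, an ankyrin repeat protein of little known function, reached 33.7 ± 24.9 CPM in macrophages (SD, n = 4), and Bnip3l 165.2 ± 39.2 CPM in cholangiocytes (SD, n = 3), each overlapping the class ranked next.

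Counted over the whole list, 32 members could be tested in the fit over all classes. Slc16a3, P4ha2, Egln3 and Aldoc have 0 UMIs in 1 class, so their fold change against the mean of the others has no bound, and counts are also given for the 28 members with UMIs in every class. Macrophages had 21 of 32 members higher and 0 lower by edgeR, against 19.5% higher and 5.45% lower of 11846 genes, and DESeq2 also called 0 lower. At an unadjusted p under 0.05, Ndrg1 and Pfkp were lower. Of the 28, 19 were higher against 16.7% of 8663 genes, and the median log2 fold change of the 32 was 1.28, against 0.10 over all genes. Tumour-type hepatocyte markers summed to 107.1 to 285.1 CPM in macrophages and to 5405 to 7958 CPM in tumour-type cells. The part of free tumour RNA in the macrophage values was not tested.

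Neutrophils had 20 of 32 members higher and 3 lower, against 21.9% and 22.9% of all genes, and the basophil or mast cell class 17 higher and 2 lower, against 17.7% and 8%. Of the 28, 18 were higher in neutrophils against 21% and 15 in the basophil or mast cell class against 17%. The neutrophil median was 0.79, against -0.29 over all genes. Neutrophil markers alone took 132600 to 222400 CPM, and without scaling factors the median of all genes moved by -0.44 and the share of higher genes among those called from 48.9% to 30.9%, with 15 members higher and 4 lower. Hepatocyte-like cells had 20 members higher and 7 lower, against 43.7% and 26.4% of all genes, with medians of 1.34 and 0.15, and over the 28 the count was 16 higher against 45.6%.

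The opposite pattern was seen in 3 classes. B cells had 2 members higher and 17 lower, against 28.7% and 16.6% of all genes, with a median of -0.82. Endothelial cells had 5 higher and 15 lower, against 34.3% and 18.2%, and plasmacytoid dendritic cells 3 higher and 15 lower, against 13.1% and 5.81%. In endothelial cells the lower members were mostly of the glycolysis list, of which 1 of 19 was higher (Hk1) and 14 lower. Of the hypoxia members 1 of 13 was lower and 4 were higher, near the 34.3% of all genes. These 4 include P4ha2, whose fold change has no bound. Without control 3 the count of lower members in plasmacytoid dendritic cells was 7, and without knockout 3 it was 9. Pkm was at 76.9 to 110.2 CPM in B cells (log2 fold change -1.55, SE 0.172, edgeR adjusted p = 1.09e-11), Gapdh at 239.5 to 376.2 CPM (log2 fold change -1.49, SE 0.194, edgeR adjusted p = 1.63e-09), and the highest Hk2 level was 10.8 CPM.

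The remaining classes had fewer members called or calls in both directions. Monocytes had 10 members higher and 3 lower, against 28.2% and 12.7%, NK-like cells 8 and 3 against 29.5% and 11.4%, T cells 6 and 5 against 29.7% and 11.2%, and type 1 dendritic cells 8 and 9 against 24.4% and 12.5%. Type 2 dendritic cells had 5 higher and 2 lower (14.6% and 3.34%), mature dendritic cells 1 and 5 (10% and 5.2%), and cholangiocytes 4 and 9 (18.3% and 12.2%). With the scaling of DESeq2 (RLE) in place of TMM, the share of higher genes among those called fell from 72.1% to 58% in NK-like cells, from 72.6% to 62.2% in T cells, from 68.9% to 54.6% in monocytes and from 68.8% to 56.6% in the basophil or mast cell class, and rose from 60.1% to 83.7% in cholangiocytes. Without scaling factors it rose from 65.4% to 79.8% in endothelial cells and fell from 66% to 50.8% in type 1 dendritic cells and from 65.8% to 53.2% in mature dendritic cells.

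Of the further hypoxia genes, 12 of 26 were higher in macrophages, against 19.5% of all genes. Among those with UMIs in every class, Plin2 led at 569.3 to 831.1 CPM (log2 fold change 3.25, SE 0.22, edgeR adjusted p = 2.61e-20). Fam162a, a mitochondrial protein, followed at 178.9 to 318.0 CPM (log2 fold change 1.77, SE 0.19, edgeR adjusted p = 4.45e-12). Ier3, an immediate early gene, led in neutrophils, at 747.9 to 3928 CPM (log2 fold change 5.26, SE 0.198, edgeR adjusted p = 1.67e-33), and Ddit4, which restrains growth signalling, was at 191.1 to 696.9 CPM in the basophil or mast cell class (log2 fold change 3.51, SE 0.189, edgeR adjusted p = 4.48e-25). Of the further glycolysis genes, 16 of 23 were higher in hepatocyte-like cells, against 43.7% of all genes. These lists include genes with 0 UMIs in some class.

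The 3 pairs of related classes came from the same fit. Neutrophils exceeded monocytes in 14 of 32 members and were below them in 2, against 14% and 21.9% of all genes, with medians of 0.69 and -0.32. The largest was Slc2a3, with a log2 fold change of 6.21 (SE 0.405, edgeR adjusted p = 5.33e-20) over monocytes at 0 to 24.7 CPM, followed by Slc16a3 (2.90, SE 0.305), Ero1a (2.05, SE 0.346), Pfkfb4 (1.49, SE 0.252) and Gpi1, the isomerase after hexokinase (1.21, SE 0.23). P4ha1 was lower in neutrophils (log2 fold change -1.54, SE 0.347, edgeR adjusted p = 0.000272). Without scaling factors the counts were 6 higher and 5 lower, and the share of higher genes among those called moved from 38.9% to 18.6%. Hilpda at 1.64 (edgeR adjusted p = 0.00213) had an adjusted p of 0.171 without the libraries numbered 2.

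Macrophages exceeded monocytes in 14 of 32 members and were below them in 1, against 13.3% each way among all genes, with a median log2 fold change of 0.66 against 0.00 over all genes. Mif led, at 626.2 to 1128 CPM against 89.1 to 266.8 CPM (log2 fold change 2.31, SE 0.254, edgeR adjusted p = 4.46e-11), with no overlap. Hilpda (2.61, SE 0.381), Tpi1 (1.75, SE 0.283), Ldha (1.54, SE 0.256) and Aldoa (1.47, SE 0.217) followed, all with an edgeR adjusted p of at most 2.78e-06. Pfkfb4 was lower in macrophages (log2 fold change -1.33, SE 0.336, edgeR adjusted p = 0.0017), and without control 3 its adjusted p was 0.0532. With RLE scaling the share of higher genes among those called rose from 49.9% to 66.2%, with 16 members higher and 1 lower. Of the further hypoxia genes, 8 of 26 were higher, against the same 13.3% of all genes, with Fam162a at 2.28 (SE 0.272).

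NK-like cells and T cells differed in 7 members, 5 higher and 2 lower in NK-like cells, against 5.97% and 7.3% of all genes. Pdk1 was at 14.7 to 26.7 CPM in NK-like cells and at 34.5 to 74.6 CPM in T cells, without overlap (log2 fold change -1.12, SE 0.199, edgeR adjusted p = 1.57e-05). Ndrg1 was at 8.74 to 35.6 CPM in NK-like cells and at 0 to 7.94 CPM in T cells, also without overlap (log2 fold change 1.59, SE 0.376, edgeR adjusted p = 0.00129). Hif1a was lower in NK-like cells (log2 fold change -0.89, SE 0.249, edgeR adjusted p = 0.00831), and Pgam1, Aldoc, Slc16a3 and Eno1 were higher. Without control 3 only 1 member was higher and 1 lower, and without knockout 3 there were 2 higher.

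Isozyme use was described as the share of 1 gene among the UMIs of its enzyme family in a library. UMIs at the 3′ end count molecules without regard to transcript length, and differences in capture between genes were not measured. In the pyruvate kinase pair, Pkm made up 97.3% of UMIs in tumour-type cells (96.3% to 98.1%, n = 6 libraries) and 39.5% and 59.5% in the 2 libraries with enough non-tumour cells, the rest being Pklr, the liver form. No tumour-type library overlapped a non-tumour one. The liver glucose transporter Slc2a2 kept the major share in both, at 87.0% (n = 6) in tumour-type and 72.3% (n = 2) in non-tumour cells.

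Immune classes differed from each other in the same families. Slc2a3 made up 88.0% of glucose transporter UMIs in neutrophils (n = 5) and 83.3% in the basophil or mast cell class (n = 5), while Slc2a1 made up 83.7% in monocytes (n = 4) and 76.9% in macrophages (n = 3). Hk1 made up 84.1% of hexokinase UMIs in endothelial cells (n = 5) and 71.1% in NK-like cells (n = 5), and Hk2 64.7% in monocytes (n = 4). Hk3, an isoform of myeloid cells, had its largest share in neutrophils, at 40.5% (n = 4). Pfkp made up 84.8% of phosphofructokinase UMIs in NK-like cells (n = 6), against 43.7% in tumour-type cells, where Pfkl had 53.1% (n = 6). Pfkfb4 held 59.8% of its family in neutrophils (n = 4) and Pfkfb3 97.4% in mature dendritic cells (n = 3). Bnip3 held 66.8% of the Bnip3 and Bnip3l pair in tumour-type cells (n = 6), whereas Bnip3l held 92.1% in T cells (n = 4). Ldhb, the heart form of lactate dehydrogenase, made up 40.3% in plasmacytoid dendritic cells (n = 3), and Eno3, the muscle enolase, 72.8% in mature dendritic cells (n = 3).

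**Figure D4:**
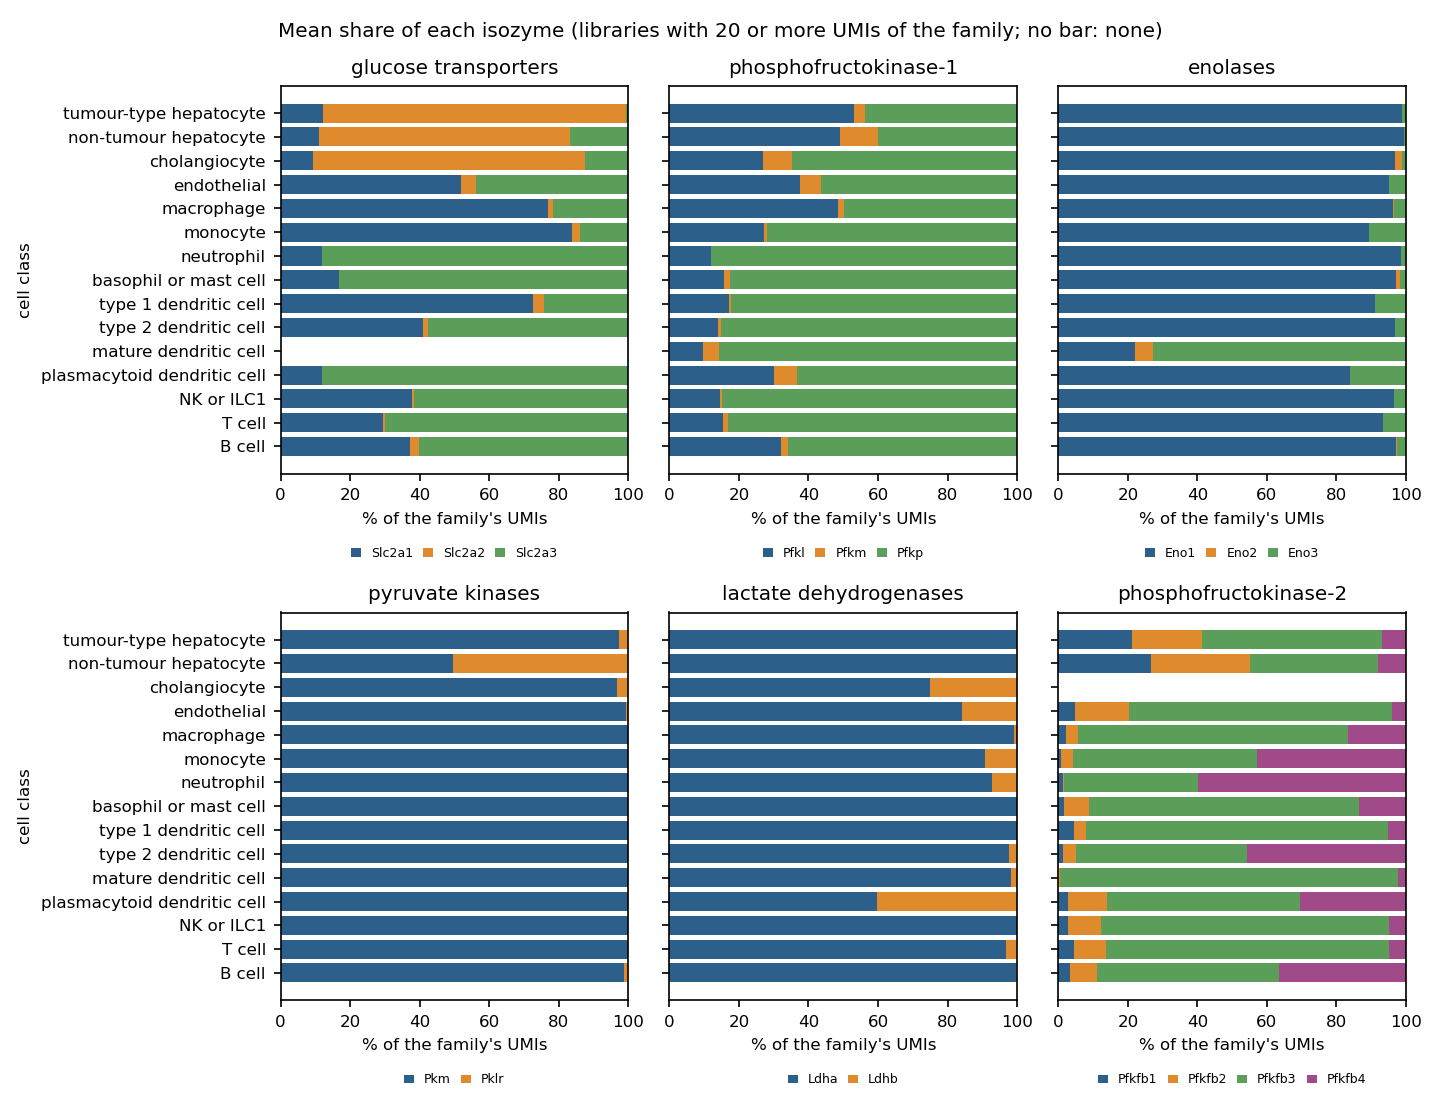
Mean share of each isozyme among the UMIs of its family, stacked to 100 percent, for 6 families in each class with at least 20 UMIs of the family in a library. Pkm fills nearly the whole bar in all classes but non-tumour hepatocyte-like cells, and the glucose transporter bars change composition from class to class.

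The comparison the study was built on, libraries labelled knockout against controls, gave 0 members past the threshold by edgeR in each of the 11 classes tested and in tumour-type cells alone. Over all genes the share called was 0% in these classes, except the basophil or mast cell class, where 3 of 3824 genes (0.0785%) were called. At an unadjusted p under 0.05 there were 0 members in NK-like cells, 1 each in T cells, B cells, neutrophils and monocytes, 2 each in the basophil or mast cell class and macrophages, and 0 in endothelial cells, hepatocyte-like cells, tumour-type cells and both dendritic cell classes tested. The share of all genes at that unadjusted threshold is not given here, so these counts are not read as more or fewer than among other genes. DESeq2 also called 0 members in every class. A count of 0 does not show that members did not differ, since most changes put into simulated counts of 3 of these comparisons were not recovered by the same fit.

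In NK-like cells, where Cre is driven by Ncr1, 27 members were tested, with a median log2 fold change of 0.06 against 0.00 over all 7211 genes. The smallest p belonged to P4ha1, at 42.4, 41.5 and 63.4 CPM in the controls and 70.7, 89.1 and 67.2 CPM in knockout 1, 2 and 3. The groups did not overlap, but the log2 fold change of 0.47 (SE 0.262) had an edgeR p of 0.091 before adjustment and 1 after it. Slc2a3 was at 64.4, 85.2 and 50.3 CPM against 41.2, 35.6 and 51.1 CPM, which overlap (log2 fold change -0.48, SE 0.265, edgeR adjusted p = 1). Ndrg1 had a log2 fold change of 0.57 (SE 0.36). Pfkp, the phosphofructokinase of these cells, was at 155.7, 231.6 and 173.4 CPM against 163.4, 178.2 and 208.3 CPM, and the summed glycolysis level was 3483 ± 863 CPM over the control libraries and 3657 ± 457.1 CPM over the other group (SD, n = 3 each).

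In neutrophils, Tpi1 was at 77.5, 92.6 and 54.5 CPM in the controls and at 271.2, 194.5 and 266.9 CPM in knockout 1, 2 and 3. The groups did not overlap. The log2 fold change of 1.92 (SE 0.476) had an edgeR adjusted p of 0.999, and with the replicate number as a block it was 1.99 (edgeR adjusted p = 0.0384), the only member called in any class under the alternatives run. Gapdh in neutrophils was at 717.2, 889.4 and 834.2 CPM against 1177, 2061 and 913.9 CPM, also without overlap, with a log2 fold change of 0.86 (SE 0.511, edgeR adjusted p = 0.999), and Ldha overlapped (log2 fold change 1.12, SE 0.597). The median over 22 members tested in neutrophils was 0.56, against 0.03 over 2305 genes. In tumour-type cells Tpi1 was at 640.3 to 748.1 CPM in the 3 control libraries and 674.4 to 890.8 CPM in the other 3. Tumour-type markers summed to 352.0 to 672.0 CPM in control neutrophils and 512.6 to 739.0 CPM in neutrophils of the other group, and their part in the Tpi1 values was not tested.

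Hilpda had log2 fold changes of 0.59 in T cells (SE 0.277), 0.73 in B cells (SE 0.406), 1.66 in monocytes (SE 0.624), 1.13 in macrophages (SE 0.395), 1.504 in neutrophils (SE 1.37) and 0.02 in NK-like cells (SE 0.366), each with an edgeR adjusted p of at least 0.999. In the basophil or mast cell class it was negative, at -1.40 (SE 0.507, edgeR adjusted p = 0.432), beside Ero1a at -1.25 (SE 0.438, edgeR adjusted p = 0.419). In macrophages it was at 97.6 and 137.0 CPM in control 1 and 3 and at 269.7 and 274.8 CPM in knockout 1 and 3. Slc2a3, the other macrophage member with an unadjusted p under 0.05, was at 16.3 and 3.15 CPM against 40.6 and 24.5 CPM, without overlap (log2 fold change 2.31, SE 0.916, edgeR adjusted p = 1), and Ankrd37 had a log2 fold change of 1.35 (SE 0.693). In monocytes Hilpda was at 14.5, 0 and 21.5 CPM against 22.4, 167.8 and 80.3 CPM, with the highest value in knockout 2, as for Egln3 (log2 fold change 1.71, SE 0.828) and Pfkfb3 (0.82, SE 0.425). P4ha1 had the smallest p in T cells (log2 fold change 0.68, SE 0.276) and in B cells (0.64, SE 0.247), each with an edgeR adjusted p of 1. In B cells it was at 45.1, 58.5 and 77.2 CPM against 100.7 and 102.3 CPM. Its log2 fold change was 1.49 in the basophil or mast cell class (SE 0.85), and the next members by p were Tpi1 in T cells (0.51, SE 0.245) and Hk1 in B cells (0.39, SE 0.33). The classes of a library share that library, so these values are not independent of each other.

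In hepatocyte-like and tumour-type cells, the deepest classes, the members lay near 0. Of 33 members tested in tumour-type cells the median log2 fold change was 0.07, and the smallest p belonged to Pfkfb4, at 0 to 1.28 CPM in controls and 1.25 to 4.69 CPM in the other group (log2 fold change 1.27, SE 0.612, edgeR adjusted p = 1). Hk1 followed at 1.11 (SE 0.736) and Bnip3 at 0.35 (SE 0.263), and in hepatocyte-like cells as a whole the first 3 were Pfkfb4 at 1.199 (SE 0.634), Bnip3 at 0.35 (SE 0.257) and Pdk1 at -0.18 (SE 0.171). Ldha was at 1420, 1232 and 1415 CPM against 1343, 1430 and 1462 CPM, and the summed glycolysis level was 8345 ± 881.4 CPM against 8708 ± 1002 CPM (SD, n = 3 each). In endothelial cells the smallest p belonged to Eno1 (log2 fold change 0.63, SE 0.485), and in both dendritic cell classes to Tpi1 (0.52, SE 0.282, in type 1 and -0.66, SE 0.441, in type 2), all with an edgeR adjusted p of at least 0.999. The next by p were Gapdh (-0.48, SE 0.41) and Pdk1 (-0.47, SE 0.423) in endothelial cells, Pgam1 (0.34, SE 0.21) and Pdk1 (-0.63, SE 0.439) in type 1 and Mif (0.39, SE 0.273) and Pfkfb4 (0.76, SE 0.586) in type 2 dendritic cells. Isozyme shares were compared between the groups in 67 exact permutation tests with 3 libraries against 3, which cannot go below p = 0.1. Of these, 2 reached 0.1, both glucose transporters in hepatocyte-like cells: Slc2a2 averaged 82.3% in controls and 89.2% in libraries labelled knockout, and Slc2a3 averaged 3.42% and 0.790%. The smallest adjusted p over the 67 tests was 1.

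**Figure D5:**
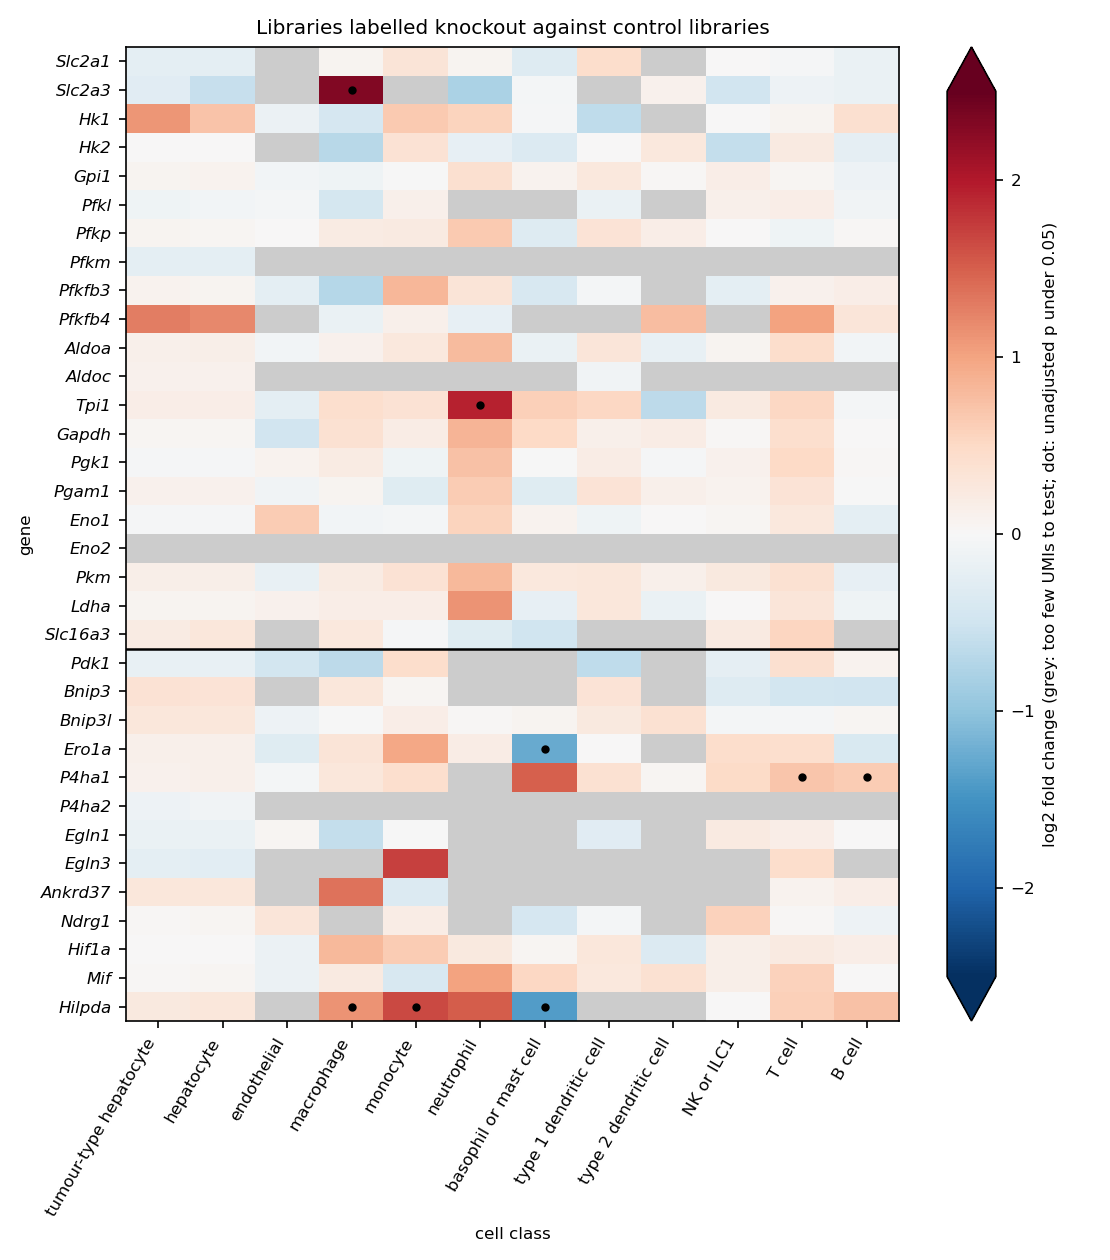
Log2 fold change of each member, libraries labelled knockout over controls, in each class tested, with a dot where the unadjusted edgeR p is under 0.05 and grey where UMIs were too few. No cell passes the adjusted threshold, and Tpi1 in neutrophils is at 1.92.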

How the data were processed

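Values are UMI counts of 6 libraries of single cells, 3 controls and 3 labelled knockout. The authors deposited whole-number counts per gene and cell barcode, made with Cell Ranger 7.0.1 for replicates 1 and 2 and 9.0.1 for replicate 3, per the file headers. The submitters' processing notes name Cell Ranger 9.0.1 and build GRCm39. Cells with at least 500 UMIs, at least 300 genes and at most 20% mitochondrial UMIs were kept and called by marker UMIs (at least 3 from at least 2 markers, runner-up class at most 0.5 of the best). The thresholds were set after cells were seen, without using the members. No doublet caller was run; cells with markers of several classes (9.31%) and uncalled cells (14.54%) were left out. UMIs were summed per library and class (at least 10 cells). The sums were tested across libraries with edgeR 4.0.16 in R 4.3.3 (quasi-likelihood, TMM scaling, low-count filter, Benjamini-Hochberg threshold 0.05). In checks on simulated data, most changes were missed in the comparisons of the 2 groups and in that of tumour-type against non-tumour cells. DESeq2 1.42.0 was an alternative. Each class was compared with the mean of the other 13, with the library as a block. This fit pooled the spread over 66 sums, so its p-values do not measure the spread of 1 class across its own libraries. Limits for a count of 0 (3 UMIs) and depth cover counting error only.

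The members and lists were chosen with earlier results of these data known. Members given with their test came, per comparison, from up to 12 members that passed, ranked by p (if fewer than 3 did, the 3 ranked first), and up to 4 other genes. Other members are given by level or direction. Same-numbered libraries deviated together in all 5 classes checked (correlations 0.119 to 0.555). The replicate number was therefore taken to pair them in the alternative with a replicate block. The main tests between the 2 groups used no such block and so ignored the pairing. It comes from the data, as the labels give only the number. The fits without scaling factors and with tumour-type cells as a class of their own were added after seeing the data. Promoters are from RefSeq tables of GRCm38.p6, used without coordinates of the count files. A second, low row named Aldoa and the near-copy Eno1b make those 2 genes' counts less certain. Some results on withheld genes are not reported here.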

Additional observations from a re-analysis of the deposited data

How the results depend on the processing

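No named member that was called changed sign under the alternatives run, although the balance of higher and lower members turned in cholangiocytes and monocytes. Counts of lower members also depended on the tool in NK-like cells (3 by edgeR, 11 by DESeq2) and in T cells (5 and 8). Over all comparisons, 546 alternative counts of members stayed within 1.5 times the main count and 73 moved, and of the alternative values of the members picked for naming 2823 kept their side of the threshold, 140 lost it and 1 gained it; members outside that selection are covered by the counts only. Main counts, given first, changed as follows. With DESeq2, members lower in NK-like cells went from 3 to 11, in T cells from 5 to 8, in monocytes from 3 to 7 (higher from 10 to 6), in type 2 dendritic cells from 2 to 5, in cholangiocytes from 9 to 3 (higher from 4 to 7) and in tumour-type cells from 5 to 3, and members higher in NK-like than T cells from 5 to 3. With RLE scaling, lower members went from 3 to 7 in NK-like cells, from 9 to 3 in cholangiocytes and from 2 to 4 in type 2 dendritic cells, and higher members in monocytes from 10 to 6. With at most 10% mitochondrial UMIs, lower members were 5 in NK-like cells, 1 in the basophil or mast cell class, 5 in cholangiocytes (higher 2), 2 in macrophages and 3 in macrophages against monocytes. Without a filter they were 5 in NK-like cells, 2 in macrophages against monocytes, 1 in neutrophils against monocytes and 3 in tumour-type cells, and 2 were higher in mature dendritic cells. Without scaling factors, lower members were 4 in cholangiocytes, 8 in mature dendritic cells and 5 in neutrophils against monocytes, and higher members 8 in endothelial cells, 5 in type 1 dendritic cells and 6 in neutrophils against monocytes. With stricter calls, higher members were 3 in NK-like against T cells and 3 in type 2 dendritic cells, and lower ones 1 in the basophil or mast cell class, 2 in cholangiocytes, 1 in macrophages and 2 in macrophages against monocytes. Without both libraries numbered 2, 1 was lower in the basophil or mast cell class. Leaving out 1 library gave ranges of 1 to 5 higher and 1 to 2 lower (NK-like against T cells), 2 to 5 lower (NK-like), 3 to 5 lower (T cells), 1 to 2 lower (basophil or mast cell), 2 to 5 higher and 4 to 9 lower (cholangiocytes), 3 to 7 higher (endothelial), 4 to 8 lower (hepatocyte-like), 0 to 3 lower (macrophages against monocytes), 0 to 1 lower (macrophages), 2 to 7 lower (mature dendritic cells), 1 to 2 lower (neutrophils against monocytes), 7 to 15 lower (plasmacytoid dendritic cells), 11 to 21 higher and 2 to 4 lower (tumour-type), 5 to 8 higher (type 1 dendritic cells), and 3 to 5 higher and 0 to 3 lower (type 2 dendritic cells). With the replicate block the count in neutrophils, libraries labelled knockout against controls, went from 0 to 1, and the block changed no other call. The cause of these changes was not tested. With a minimum of 50 family UMIs, 1 isozyme share moved, Eno3 in mature dendritic cells, to 76.9%. Knockout 2, with 24 NK-like cells and 10 neutrophils, limits what its values show.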
